A study of Rattus norvegicus with 4 samples.

Results

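Igf2, Igf1r and Insr are the genes of one growth factor and a pair of related receptors, and all probe sets that the probe table assigns to exactly these symbols were taken. They are 3 of the 720 named genes and 8 of the 1263 probe sets other than controls on the array: 6 probe sets for Igf2, 1 for Igf1r and 1 for Insr. Total RNA of Rattus norvegicus, labelled as brain, adrenal medulla, was hybridised to 4 single-channel oligonucleotide arrays, 1 for each of digested day 7, undigested day 7, digested day 1 and undigested day 1. No genotype, strain, age or agent is given in the sources used here, and neither is what was digested or what the days were counted from. With 1 array per group no spread between replicates was measured, so the difference of any array from another is given as a size with no test. An additive fit over all 4 arrays is the one test made. In such bulk RNA fewer cells that make a transcript cannot be told apart from less transcript per cell.

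Igf2 codes for insulin-like growth factor 2, a secreted peptide hormone that is abundant in fetal tissue, and in the adult brain is known mainly from the meninges and the choroid plexus. Igf1r codes for the receptor tyrosine kinase through which IGF1 and IGF2 act on growth and survival, and Insr for the insulin receptor, its closest relative, which binds insulin and, in one splice form, also IGF2. Both receptors signal through docking proteins to the PI3K-AKT branch, which acts on glucose uptake, protein synthesis and survival, and to the RAS-MAPK branch. Binding proteins outside the cell hold most IGF and set how much reaches a receptor.

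The sequence upstream of each annotated start shows how the 3 genes begin, and it is given for all of them because their signals did not run the same way across the arrays. The windows are the 250 bases before each start in RefSeq's rat assembly GRCr8, written 5′ to 3′ on the gene's strand, with matches to the GC box GGGCGG on either strand in capitals. RefSeq's table held 2 starts for Igf2 and 1 each for Igf1r and Insr.
Igf2, window 1, chr1:207253981-207254230, - strand: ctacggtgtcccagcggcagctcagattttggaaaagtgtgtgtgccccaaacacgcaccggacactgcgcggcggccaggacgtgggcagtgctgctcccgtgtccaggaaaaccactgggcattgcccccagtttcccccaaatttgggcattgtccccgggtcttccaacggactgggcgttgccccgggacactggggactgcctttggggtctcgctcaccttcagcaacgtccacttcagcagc
Igf2, window 2, chr1:207250476-207250725, - strand: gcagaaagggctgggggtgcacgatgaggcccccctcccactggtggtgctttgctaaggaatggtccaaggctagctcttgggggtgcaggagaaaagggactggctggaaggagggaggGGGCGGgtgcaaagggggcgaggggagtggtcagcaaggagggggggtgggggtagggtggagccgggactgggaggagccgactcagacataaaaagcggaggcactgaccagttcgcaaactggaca
Igf1r, window 1, chr1:130959747-130959996, + strand: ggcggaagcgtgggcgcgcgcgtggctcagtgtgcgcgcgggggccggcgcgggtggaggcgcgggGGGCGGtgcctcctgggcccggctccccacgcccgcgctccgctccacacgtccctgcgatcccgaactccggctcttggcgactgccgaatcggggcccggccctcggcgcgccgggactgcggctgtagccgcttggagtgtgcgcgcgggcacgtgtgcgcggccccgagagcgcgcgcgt
Insr, window 1, chr12:6128804-6129053, - strand: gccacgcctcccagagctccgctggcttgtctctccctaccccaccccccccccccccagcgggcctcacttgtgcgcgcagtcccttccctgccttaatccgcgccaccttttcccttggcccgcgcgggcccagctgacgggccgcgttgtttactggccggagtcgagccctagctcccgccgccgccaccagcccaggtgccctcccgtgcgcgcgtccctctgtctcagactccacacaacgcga

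The GC box was matched 1 time in the second Igf2 window, at position -129 from the start, and 1 time in the Igf1r window, at position -184. It was matched 0 times in the first Igf2 window and 0 times in the Insr window. Of the 33469 rat windows of the same length, 30.5% held it on either strand. The TATA box letters TATAAA, searched on both strands, were matched 0 times in the 4 windows and in 12.9% of all windows. The base composition was 79.6% G and C for Igf1r, 71.2% for Insr and 62.4% and 63.6% for the Igf2 windows, against a median of 51.2% over all windows. These matches describe the letters and no binding was measured.

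Values are the deposited signal intensities, scaled to 1 median for the 4 arrays, with control probe sets left out, and set to a floor of 51.8 for differences. A probe set was analysed when its geometric mean signal over the 4 arrays, after the floor, reached 229, the median of all. This kept 632 probe sets, among them 4 of the 8 described here: the one of Igf1r, the one of Insr and 2 of the 6 of Igf2. A difference of at least 2-fold (a log2 difference of at least 1 either way) was counted. Levels of different probe sets are not set against each other, since each binds its target with its own strength.

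Igf1r, read by probe set M27293_s_at, whose probes can match more than one transcript, had a scaled signal of 657 (digested) and 225 (undigested) at day 7 and 567 (digested) and 421 (undigested) at day 1. Both digested arrays read above both undigested arrays, and the undigested day 7 array was the lowest. Insr, read by M29014_at, had scaled signals of 271 (digested) and 556 (undigested) at day 7 and 362 (digested) and 431 (undigested) at day 1. Its order was the reverse of that of Igf1r, array for array, with both digested arrays below both undigested arrays. The array with the lowest Igf1r signal thus had the highest Insr signal.

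Igf2 was led by its brightest probe set, M17960_g_at, which had a scaled signal of 349 (digested) and 197 (undigested) at day 7 and 228 (digested) and 471 (undigested) at day 1. The other analysed probe set, M17960_at, bears the name of the same sequence record and read 383 (digested) and 107 (undigested) at day 7 and 269 (digested) and 294 (undigested) at day 1. Both read lowest on the undigested day 7 array, but they put different arrays at the top, the undigested day 1 array for M17960_g_at and the digested day 7 array for M17960_at. Of the 4 dimmer Igf2 probe sets, X17012mRNA_s_at had a scaled signal of 272 (digested) and 151 (undigested) at day 7 and 184 (digested) and 190 (undigested) at day 1. It gave the same array order as M17960_at. X16703_i_at read 105 (digested) and 32.4 (undigested) at day 7 and 215 (digested) and 54.9 (undigested) at day 1, with 1 array below the floor. X16703_r_at read 20.6 (digested) and 67.0 (undigested) at day 7 and 113 (digested) and 26.5 (undigested) at day 1, with 2 arrays below the floor. E00988mRNA_s_at read 84.1 (digested) and 42.9 (undigested) at day 7 and 50.03 (digested) and 63.8 (undigested) at day 1, also with 2 below. In both X16703 sets the digested day 1 array was the highest, unlike in the other 4 Igf2 probe sets.

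**Figure D1:**
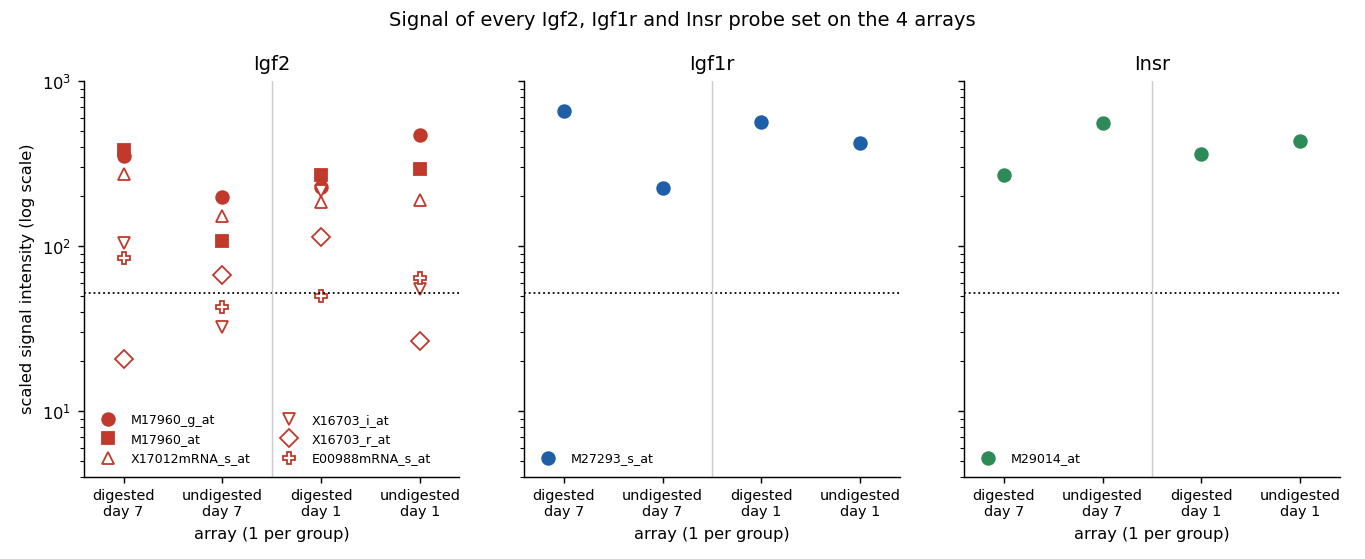
Scaled signal intensity (log scale) of the 8 probe sets on the digested day 7, undigested day 7, digested day 1 and undigested day 1 arrays, 1 point per array; filled symbols are the 4 analysed probe sets, open symbols the 4 dimmer ones, and the dotted line is the floor of 51.8. Igf1r and both analysed Igf2 probe sets read lowest on the undigested day 7 array, where Insr read highest at 556.

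The order of arrays differed in size as well as direction. Over the 4 arrays the highest signal was 2.92 times the lowest for Igf1r, 2.05 times for Insr, 2.39 times for Igf2 by M17960_g_at and 3.58 times by M17960_at. Of the 4 analysed probe sets 3 were lowest on the undigested day 7 array, where 26.3% of all analysed probe sets had their lowest value. Insr was highest there, as were 38.3% of all analysed probe sets.

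At day 7 the receptor genes differed in opposite directions between the digested and undigested samples. In the digested sample Igf1r was 2.92-fold higher (log2 difference 1.55) and Insr 2.05-fold lower (log2 difference -1.03). Igf2 was higher in the digested sample by both analysed probe sets, with log2 differences of 0.82 by M17960_g_at and 1.84, or 3.58-fold, by M17960_at. Of the 4 analysed probe sets, 2 were past 2-fold higher and 1 past 2-fold lower, beside 6.96% higher and 4.43% lower among all 632. A difference at least as large as that of Igf1r in either direction was read for 4.11% of the analysed probe sets, and one at least as large as that of Insr for 11.2%. These shares cover all levels, and large differences were more common among dimmer probe sets. Of the 72 analysed probe sets past 2-fold at day 7, 12 were in the brighter part of the analysed set, split at its median. The geometric mean signals of the 4 described here lay between 239 and 433, against the 229 needed to be analysed. The 2-fold difference of Insr was near the limit, and with values as deposited, quantile normalisation or an offset in place of the floor it fell short of 2-fold, with a log2 difference of -0.89 for values as deposited. With a floor at the 40th percentile the Igf2 difference by M17960_at was 1.24.

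The Igf2 probe sets below the limit were examined beside them. At day 7, 5 of the 6 Igf2 probe sets read higher in the digested sample, with log2 differences between -0.37 and 1.84 and a median of 0.84. The exception was X16703_r_at, whose digested day 7 signal of 20.6 lay under the floor. Of the 5, X16703_i_at and E00988mRNA_s_at likewise rest on undigested day 7 signals under the floor, and with a floor at the 40th percentile these 3 probe sets all had a log2 difference of 0. X17012mRNA_s_at, the one of the 4 dimmer probe sets that stayed above the floor on every array, was 1.80-fold higher in the digested sample.

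At day 1 the receptor genes differed less between the digested and undigested samples. In the digested sample Igf1r was 1.35-fold higher (log2 difference 0.43), and Insr had a log2 difference of -0.25. A day 1 difference at least as large in either direction was read for 20.3% of the analysed probe sets for Igf1r and 42.2% for Insr. Of the 22 analysed probe sets past 2-fold at day 1, 0 were in the brighter part of the analysed set. Igf2 was 2.07-fold lower in the digested sample by M17960_g_at (log2 difference -1.05), while M17960_at gave a log2 difference of -0.13 and X17012mRNA_s_at one of -0.05. Of the 4 analysed probe sets 1 was past 2-fold, in the lower direction, beside 1.42% of all 632 lower and 2.06% higher. With an offset in place of the floor its log2 difference of -0.91 fell short of 2-fold. That Igf2 difference was carried by 1 of 6 probe sets: X16703_i_at and X16703_r_at read higher in the digested sample, with log2 differences of 1.97 and 1.12 that rest on undigested signals of 54.9 and 26.5 near or under the floor. The mean over all 6 Igf2 probe sets had the opposite sign, at a log2 difference of 0.26.

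**Figure D2:**
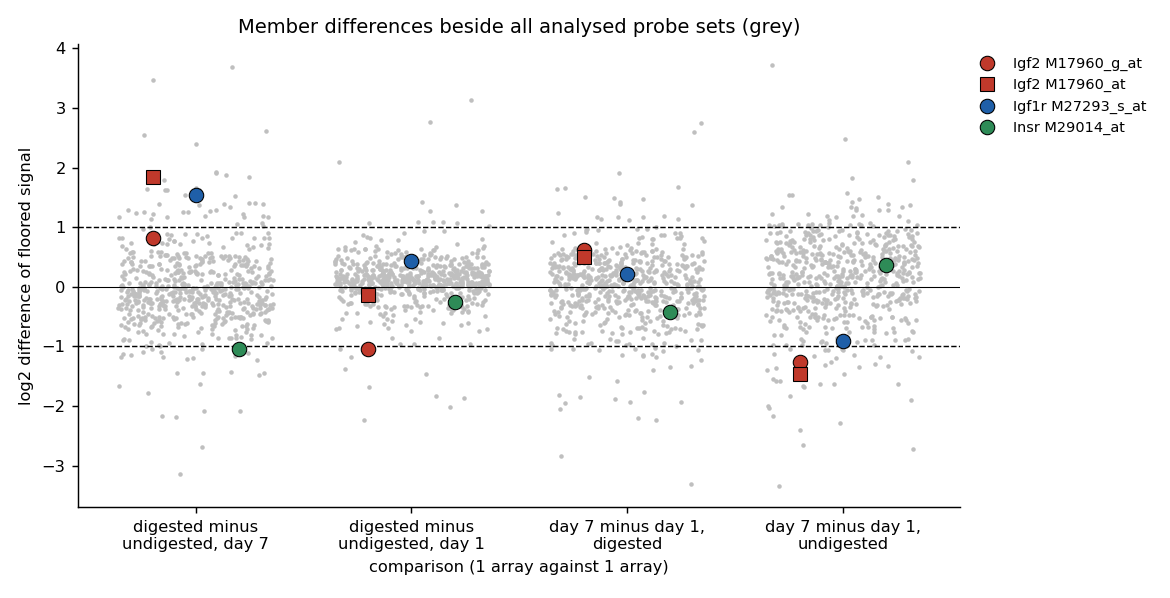
Log2 difference of floored signal in 4 comparisons of 1 array with 1 array; coloured symbols are the analysed Igf2, Igf1r and Insr probe sets, grey points all 632 analysed probe sets, and dashed lines mark 2-fold. At day 7 Igf1r (1.55) and Igf2 (0.82 and 1.84) read above 0 and Insr (-1.03) below, and in the undigested day comparison the order was turned.

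At both days the digested sample had the higher Igf1r and the lower Insr signal, on 2 pairs of arrays that share no array. In the additive limma fit of digestion and day over all 632 probe sets, which leaves 1 residual degree of freedom per probe set, the digestion effect on Igf1r was a log2 of 0.99 (95% interval 0.17 to 1.80), with an unadjusted p of 0.0230 and a Benjamini-Hochberg adjusted p of 0.677, higher in 2 of 2 pairs. For Insr the limma effect was -0.64 (95% interval -1.40 to 0.11) with an adjusted p of 0.881, lower in 2 of 2 pairs. For Igf2 by M17960_g_at the limma effect was -0.11 (95% interval -1.11 to 0.89), with an adjusted p of 0.999 and the pairs in opposite directions, and by M17960_at it was 0.86 (95% interval -0.17 to 1.88) with an adjusted p of 0.889. None of the members passed the adjusted threshold, and neither did any of the 632 probe sets for digestion, where limma gave 42 unadjusted p-values under 0.05 and a lowest adjusted p of 0.439. The error of this fit comes from how far the pairs of the 2 days disagree and from a spread borrowed across probe sets, and not from replicates. How many of the 632 probe sets ran the same way at both days was not counted, so 2 of 2 pairs is a description only.

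Subtracting the day 1 from the day 7 digestion difference left a log2 of 1.12 for Igf1r, -0.78 for Insr, 1.87 for Igf2 by M17960_g_at and 1.97 by M17960_at. All 3 analysed probe sets of Igf1r and Igf2 were past 2-fold upwards, beside 6.96% of all analysed probe sets upwards and 7.44% downwards, and Insr was short of it. Both Igf2 sets among the 3 bear the name of the same sequence record, so they are not separate genes. The 2 analysed Igf2 probe sets gave unlike sizes within each day and near values here. That nearness depends on the floor: at the 40th percentile M17960_at gave 1.37 and M17960_g_at still 1.87. The dimmer X17012mRNA_s_at gave 0.89 with the floor used throughout. With every array used up by this contrast, it has no error to test it with. An offset in place of the floor brought Igf1r to 0.97, short of 2-fold. Over all 6 Igf2 probe sets the values lay between -1.49 and 1.97, with 4 above 0.

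**Figure D3:**
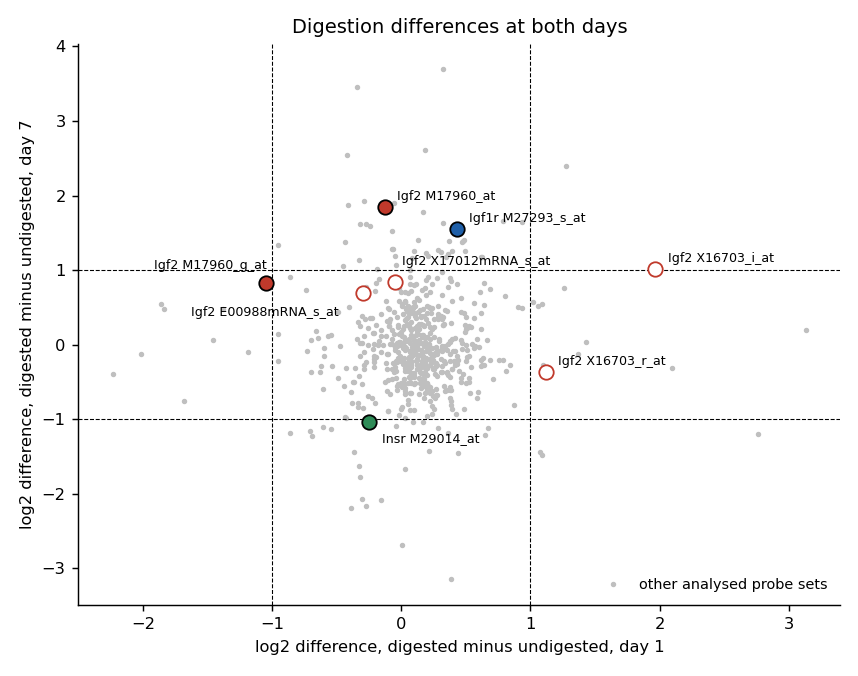
Log2 difference of digested minus undigested at day 7 (vertical) against the same at day 1 (horizontal), with grey points for analysed probe sets, filled symbols for the analysed Igf2, Igf1r and Insr probe sets, open symbols for the dimmer Igf2 probe sets and dashed lines at 2-fold. Igf1r lies at 0.43 and 1.55, Insr at -0.25 and -1.03, and the 6 Igf2 probe sets spread from -1.05 to 1.97 at day 1.

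In the undigested samples Igf2 was lower at day 7 than at day 1, 2.39-fold by M17960_g_at (log2 difference -1.26) and 2.75-fold by M17960_at (log2 difference -1.46). Igf1r was 1.87-fold lower at day 7 (log2 difference -0.91), which came to more than 2-fold with values as deposited and quantile normalisation, with a log2 difference of -1.14 for values as deposited. M17960_at fell short of 2-fold, at -0.86, with a floor at the 40th percentile. Insr was 1.29-fold higher at day 7. Of the 4 analysed probe sets 2 were past 2-fold lower, beside 6.01% of all 632, and 0 past 2-fold higher, beside 7.28%. Over all 6 Igf2 probe sets 5 read lower at day 7 in the undigested samples, with a median log2 difference of -0.32. The median over all analysed probe sets was 0.17. Of the 5, X16703_i_at and E00988mRNA_s_at rest on undigested day 7 signals of 32.4 and 42.9, under the floor. With a floor at the 40th percentile both had a log2 difference of 0. M17960_g_at and M17960_at, also among the 5, bear the name of the same sequence record.

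In the digested samples the day differences of Igf1r and of both analysed Igf2 probe sets were smaller and of the opposite sign, and that of Insr was of similar size and also opposite in sign. The day 7 signal of Igf2 was 1.53 times the day 1 signal by M17960_g_at and 1.42 times by M17960_at. Over all 6 Igf2 probe sets 4 read higher and 2 lower at day 7 in the digested samples, with a mean of 0.037 against 0.61 by M17960_g_at. The 2 lower ones were X16703_i_at (log2 difference -1.04) and X16703_r_at (-1.12), neither of them in the analysed set. X16703_r_at rests on a digested day 7 signal of 20.6, under the floor. With a floor at the 40th percentile X16703_i_at gave -0.41 and X16703_r_at 0. E00988mRNA_s_at, among the 4 higher ones, also gave 0 with that floor. Igf1r had a log2 difference of 0.21 and Insr one of -0.42. None of the 4 analysed probe sets was past 2-fold, beside 8.07% of all 632 in either direction. With limma's additive fit the day effect had an adjusted p of 0.688 for Igf1r (log2 -0.35), 0.973 for Insr (log2 -0.03), 0.771 for Igf2 by M17960_g_at (log2 -0.32) and 0.659 by M17960_at (log2 -0.48), with the 2 pairs of each in opposite directions. Over all 632 probe sets limma gave 1 adjusted p under 0.05 for day (0.0283), and 91 unadjusted ones.

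The ratio of the receptor signals does not depend on the scaling of an array. The Igf1r signal over the Insr signal was 5.98 times as high in the digested as in the undigested sample at day 7 (log2 difference 2.58) and 1.60 times at day 1 (log2 difference 0.68). Between the days this ratio was 1.55 times as high at day 7 as at day 1 in the digested samples and 2.42 times lower in the undigested samples (log2 difference -1.27). The ratio of Igf2 by M17960_g_at to Insr was 3.63 times as high in the digested as in the undigested sample at day 7, and 1.74 times lower in the digested sample at day 1 (log2 difference -0.80). By M17960_at it was higher in the digested sample at both days, with log2 differences of 2.88 at day 7 and 0.12 at day 1, so the direction at day 1 depends on the probe set.

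The day 7 digestion difference and the undigested day difference share the undigested day 7 array, so a low or high value there enters both. There the signal of the 3′ probe set of beta-actin was 2.66 times that of the 5′ probe set, a ratio that rises when labelled RNA is incomplete, against 1.35 (digested day 7), 1.48 (digested day 1) and 1.42 (undigested day 1). The same ratio there was 1.18 for GAPDH, against 1.01 to 1.10 on the other arrays, and 1.40 for hexokinase, against 1.05 to 1.31. The 9 probe sets of control transcripts added at hybridisation were low on the digested day 7 array, with a median log2 of -1.32 against the other 3 arrays, and between 0.34 and 0.48 on each other array. The part of either in the differences of Igf1r, Insr and Igf2 was not tested. Markers of the labelled tissue were present: Th, which codes for the enzyme that commits tyrosine to catecholamine synthesis, read between 163625 and 256725, and the 5 of 10 chromaffin cell markers with probe sets summed to 251867 (digested) and 385915 (undigested) at day 7 and 303938 (digested) and 280793 (undigested) at day 1. The chromaffin sum was thus highest on the array with the highest Insr signal and lowest on the array with the lowest. Most of this sum was Th. By their brightest probe sets Dbh, Ddc and Penk were also highest on the undigested day 7 array, but lowest on the undigested day 1 array. Npy was lowest on the digested day 7 array, but highest on the digested day 1 array. Of 12 listed neuron markers, 9 had probe sets, and their sums were 241511 (digested) and 270908 (undigested) at day 7 and 372942 (digested) and 340230 (undigested) at day 1. Astrocyte markers, 4 of 7, summed to 6867 to 11985 on the digested and 5707 to 11581 on the undigested arrays, and oligodendrocyte and Schwann cell markers, 5 of 9, to 2983 to 3173 on the digested and 3160 to 4308 on the undigested arrays. Vim, the only one of 8 fibroblast, meninges and vessel wall markers with a probe set, stayed under the floor on all 4 arrays, and of 6 macrophage markers Itgam alone had one, with scaled signals between 7.92 and 123. No probe set was assigned to exactly the symbol of a listed marker of endothelium or adrenal cortex, so these cells could not be described. Neuron and astrocyte sums were lower on both day 7 arrays than on both day 1 arrays. By brightest probe sets, the 9 neuron genes had a median day difference of log2 -0.58 in digested and 0.03 in undigested samples. In the undigested samples Nefl, Nefh, Syn1, Syp and Map2 read higher at day 7, and Nefm, Syn2, Snap25 and Gap43 lower. The astrocyte sums were mostly Glul, whose brightest probe set read 3356 (digested) and 2499 (undigested) at day 7 and 6904 (digested) and 6550 (undigested) at day 1, while Slc1a3 by its brightest had day differences of log2 0.23 in digested and -0.11 in undigested samples. The part of any of these cells in the member values was not tested.

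The wider pathway was described through a list of 74 other genes, of which 19 had probe sets and 12 had an analysed one. For digestion at day 7, 3 of these 12 genes (Igfbp6, Nf1 and Slc2a3) were past 2-fold higher by their brightest probe set and 0 lower. Among all analysed probe sets 6.96% were higher and 4.43% lower, so the counts are of genes and the shares of probe sets. The median log2 difference was 0.15 over the genes and -0.05 over all analysed probe sets. Nf1 was counted by a probe set under the floor on the undigested day 7 array (38.4), and its other analysed probe set gave -0.04. For digestion at day 1 none of the 12 was past 2-fold in either direction, beside 3.48% of all, with medians of 0.08 over the genes and 0.12 over all analysed probe sets. In the undigested samples 1 (Slc2a1) was higher and 3 (Igfbp6, Nf1 and Pik3r1) lower at day 7, beside 7.28% and 6.01%. Nf1 again rests there on the value under the floor, and its other analysed probe set went the opposite way, at a log2 difference of 1.04. In the digested samples none was past 2-fold, beside 8.07% in either direction.

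Among ligands, Ins1, an insulin gene of rodents, had scaled signals of 319 (digested) and 186 (undigested) at day 7 and 286 (digested) and 345 (undigested) at day 1. The probes of this set can match other members of a gene family, and its log2 difference between digested and undigested was 0.77 at day 7 and -0.27 at day 1. Igf1, the other ligand of the IGF1 receptor, had 1 analysed probe set of 5, X06107_r_at, with log2 differences of -0.72 at day 7 and -0.23 at day 1. X06107_i_at, which bears the name of the same sequence record, and D00698_s_at stayed under the floor on every array. M15481_g_at rose above the floor only on the undigested day 7 array, and M15481_at was above it on every array. Of 5 IGF binding protein genes with probe sets only Igfbp6, whose product prefers IGF2, was analysed; the probe sets of Igfbp1, Igfbp2, Igfbp3 and Igfbp5 lay below the limit. Igfbp6 read 8619 (digested) and 3841 (undigested) at day 7 and 10183 (digested) and 9597 (undigested) at day 1. It was 2.24-fold higher at day 7 and 1.06-fold higher at day 1 in the digested than in the undigested sample, and 2.50-fold lower at day 7 than at day 1 in the undigested samples, so that the undigested day 7 array alone stood low.

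Inside the cell, Pik3r1, a regulatory subunit of PI3K, had 2 analysed probe sets. The brighter, U50412_at, had a scaled signal of 7148 (digested) and 3871 (undigested) at day 7 and 7055 (digested) and 7960 (undigested) at day 1, and D64045_s_at read 2707 (digested) and 1022 (undigested) at day 7 and 2734 (digested) and 1947 (undigested) at day 1. Both were lowest on the undigested day 7 array, with digestion differences at day 7 of log2 0.88 and 1.41. Gsk3b, a kinase that AKT inhibits, went the other way at day 7, with log2 differences of -0.51 and -0.79 by its 2 probe sets, and at day 1 these were 0.02 and 0.05. Bad, a cell death gene whose product AKT inactivates, had day 7 log2 differences of -0.35 by its brighter and 0.52 by its other probe set. No probe set was assigned to exactly the symbol of a listed adaptor gene, so that group could not be described.

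On the RAS-MAPK branch, the brightest probe sets of Araf, Map2k1 and Map2k2, the kinases between RAS and MAPK, were within 1.35-fold in each of the 4 comparisons of single arrays. Nf1, a gene whose product turns RAS off, was at the floor on the undigested day 7 array by its brighter probe set, which gave a day 7 log2 difference of 3.69 that depends on the floor, and its other analysed probe set gave -0.04. Between the days in the undigested samples these probe sets went opposite ways, with log2 differences of -3.34 for the first, also set by the floor, and 1.04 for the other. Among glucose transporters, Slc2a3, a high-affinity transporter of neurons, read 9784 (digested) and 3158 (undigested) at day 7 and 7900 (digested) and 6314 (undigested) at day 1 by its brighter probe set. That was 3.10-fold higher for digested than undigested at day 7 and 1.25-fold at day 1, and its other probe set gave 2.25-fold and 1.27-fold. Slc2a1, the widespread basal transporter, was 1.27-fold lower in the digested sample at day 7 and 2.29-fold higher at day 7 than at day 1 in the undigested samples. Of other growth factor receptor tyrosine kinases, 3 of the 9 genes with probe sets had an analysed one, Fgfr1, Fgfr4 and Pdgfrb. By their brightest probe sets none of them passed 2-fold between digested and undigested at either day, beside 6.96% higher and 4.43% lower at day 7 and 3.48% in either direction at day 1, with a median log2 difference of -0.38 at day 7 and 0.22 at day 1. Pdgfrb was 2.08-fold lower at day 7 than at day 1 in the digested samples.

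**Figure D4:**
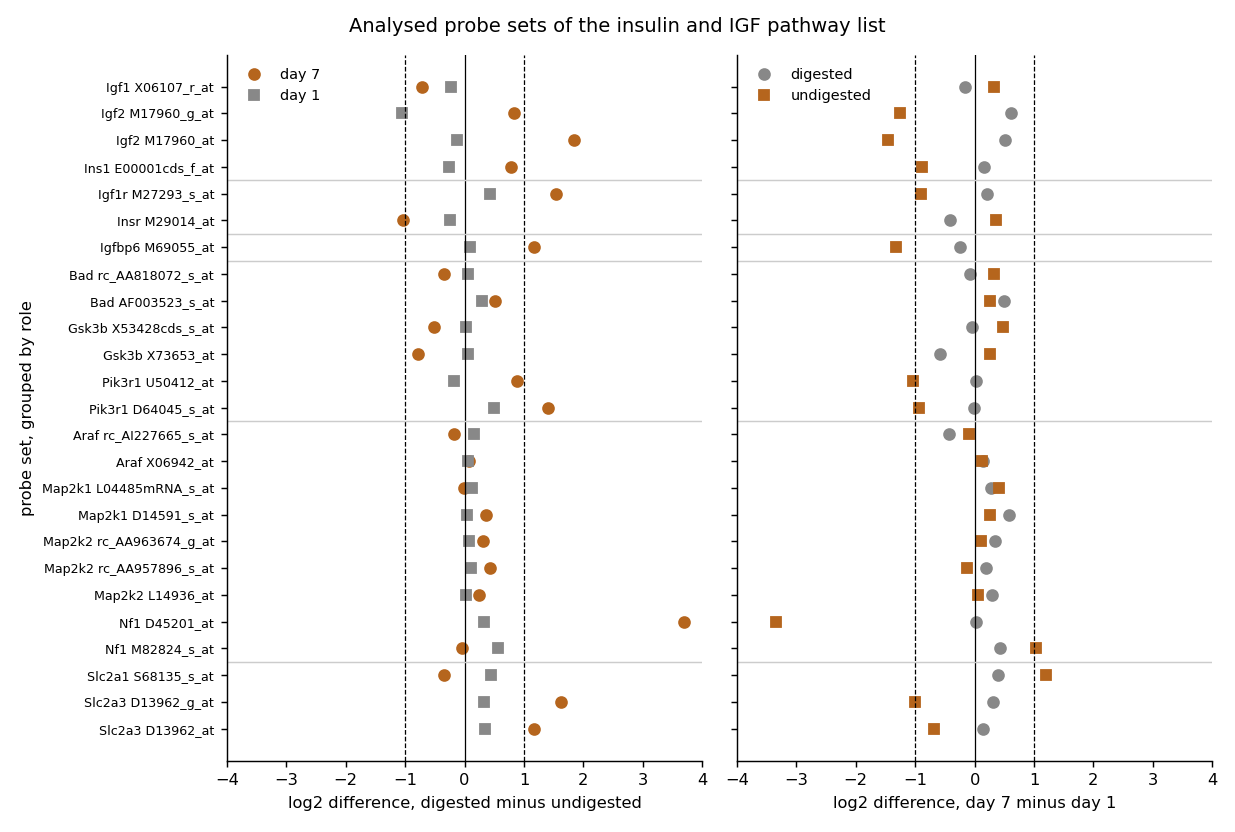
Log2 differences of every analysed probe set of the insulin and IGF pathway list, by role; the left panel shows digested minus undigested at day 7 (circles) and day 1 (squares), the right panel day 7 minus day 1 in digested (circles) and undigested (squares) samples, with dashed lines at 2-fold. At day 7 Igf1r (1.55), Igfbp6 (1.17), both Pik3r1 probe sets and both Slc2a3 probe sets lie right of 0, and Insr (-1.03), Igf1 (-0.72) and both Gsk3b probe sets left of 0.

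The genes most like each member were taken as the 5 with the smallest root mean square distance between log2 profiles over the 4 arrays, each profile centred on its own mean, among analysed probe sets of a single other gene. Nearest to Igf1r were Slc2a3 (distance 0.048), Pik3r1 (0.083), the caspase gene Casp2 (0.115), the microtubule gene Map1b (0.143) and the NMDA receptor gene Grin1 (0.156), where the median over all such probe sets was 0.668. Nearest to Insr were the transcription factor gene Stat3 (0.122), Igf1 (0.125), the small heat shock protein gene Hspb2 (0.132), the chloride transporter gene Clcn4 (0.135) and Gsk3b (0.152), with a median over all of 0.457. Igf1 was read here by X06107_r_at, its only analysed probe set. Nearest to Igf2 by M17960_g_at were the adrenergic receptor gene Adra1d (0.246), Synpo, a gene of an actin-binding protein (0.249), the potassium channel gene Kcnj16 (0.274), Ins1 (0.277) and the immediate early gene Fos (0.308), with a median of 0.621. The other analysed Igf2 probe set, M17960_at, was nearer to Igf1r (0.232) than to M17960_g_at (0.490). Insr lay farther from Igf1r (0.957) than the median probe set did. With 4 arrays a profile has few ways to vary, and these distances are descriptions without a test.

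**Figure D5:**
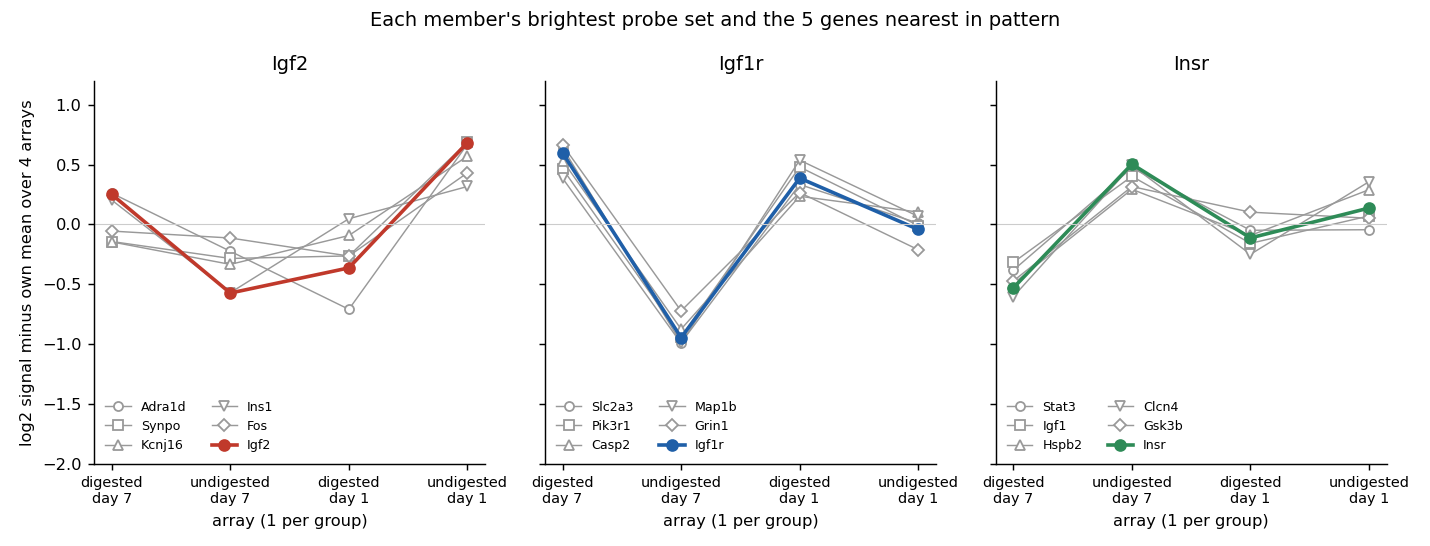
Log2 signal minus its own mean over the 4 arrays (vertical) on each array (horizontal), for the brightest probe set of Igf2, Igf1r and Insr (coloured) and the 5 genes nearest in pattern (grey), each by its nearest probe set. The Igf1r group dips on the undigested day 7 array, the Insr group peaks there, and the Igf2 group is less tight, with distances from 0.246 to 0.308.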

How the data were processed

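The authors deposited linear signal intensity per probe set on 4 arrays of 1322 probe sets, 59 of them controls; the sources used here do not give how they computed and scaled the signals. The means after trimming 2% at each end lay between 2515 and 2516. Gene names came from the platform's probe table, and all 8 member probe sets matched RefSeq by gene identifier with 0 symbols changed. Upstream sequences are RefSeq's for GRCr8, and no positions of the probe sets are used.

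The arrays were brought to 1 median (factors 0.984, 1.09, 1.01 and 0.925 for digested and undigested day 7 and digested and undigested day 1), floored at the 20th percentile (51.8) and taken to log2. Analysed probe sets had a mean log2 at or above the median. With 1 array per group, the number of arrays limits the precision. The only test was an additive fit of digestion and day with limma 3.58.1 in R 4.3.3, adjusted by Benjamini-Hochberg over 632 probe sets and tested on simulated data. Other steps ran in Python 3.11.15 with pandas 2.3.3 and numpy 2.4.6. Every member probe set is named, and a gene is led by its brightest one, except among the genes nearest in pattern, where the nearest one was taken. Listed genes with an analysed probe set are named when past 2-fold, otherwise up to 4 per group by level. Alternatives were other scalings, floors, filters and folds. The members and lists were chosen with earlier results of these data known.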

Additional observations from a re-analysis of the deposited data

Results flagged for a closer look

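By their brightest probe sets, the day differences of all 3 genes ran in opposite directions in the digested and undigested samples. How many of all analysed probe sets did so was not counted, so this is a description only. For Igf2 the day difference in the digested samples depends on the probe set. It was a log2 of 0.61 by M17960_g_at but 0.037 by the mean over all Igf2 probe sets, which gave -0.51 in the undigested samples. The digested minus the undigested day difference was a log2 of 1.87 for Igf2 by M17960_g_at, 1.12 for Igf1r and -0.78 for Insr. For Igf2 by M17960_g_at the digestion differences at day 7 and day 1 also ran in opposite directions. They differ by the same 1.87, since both subtractions use the same 4 values. By the mean over all Igf2 probe sets the digestion differences ran the same way, with a log2 of 0.81 at day 7 and 0.26 at day 1. None of these contrasts was tested, since each group holds 1 array.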

How the results depend on the processing

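For the brightest probe sets of Igf2, Igf1r and Insr, the 4 other scalings and floors changed no direction in the 5 comparisons. The 2-fold state changed for Insr at day 7 in 3 of the 4, for Igf1r between the days in undigested samples in 2, for the difference of its digestion differences in 1 (lowest log2 0.97) and for Igf2 at day 1 in 1, where an offset gave -0.91. Taking the mean over all 6 Igf2 probe sets turned the day 1 digestion difference to 0.26 from -1.05 and gave 0.037 in place of 0.61 for the day difference in digested samples, -0.51 in place of -1.26 in undigested samples and 0.55 in place of 1.87 for the difference of the digestion differences; 3 of the 6 touch the floor. A floor at the 40th percentile brought M17960_at to 1.24 at day 7, from 1.84. The arrays carry no replicate numbers to pair by, and the additive fit already compares digested with undigested within each day.

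The count of analysed probe sets past 2-fold, read in the order digestion at day 7, digestion at day 1, day in digested samples, day in undigested samples and the difference of the digestion differences, was 72, 22, 51, 84 and 91. Without the filter on dim probe sets it was 273, 208, 242, 284 and 366, in the brighter part of the analysed set 12, 0, 11, 30 and 20, at 1.5-fold 176, 73, 150, 235 and 233, and at 3-fold 25, 8, 18, 20 and 39. The fold and the filter themselves set how many probe sets can be counted. In the additive fit none of the 3 brightest probe sets changed direction or passed the threshold under the alternatives run. Signal near the floor limits the dimmer Igf2 probe sets.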
